A study of Mus musculus with 316 samples.

Results

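The proteasome subunit genes were taken as the rows of a single-cell expression table whose symbol begins with Psm, then a letter from a to g, then a digit, leaving out pseudogene rows. The rule gave 50 genes of the 21970 mouse genes in the table, and all 50 had a mean level of at least 1 TPM (transcripts scaled to a fixed total per cell and corrected for transcript length) in some group. They comprise 14 core subunits (7 α and 7 β), 17 subunits of the regulatory cap, 5 immunoproteasome genes, 7 assembly factors, 2 tissue-restricted core subunits, 2 other activators, 1 inhibitor, 1 copy of an activator gene (Psme2b), and Psmc3ip, a recombination factor that shares the name without being a subunit.

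The cells were mouse cells of 4 labelled kinds. Eng_ES-HSC were 49 haematopoietic cells derived from embryonic stem cells and taken after engraftment, Eng_BM-HSC were 95 engrafted bone marrow-derived haematopoietic stem cells, FL_HSC were 94 fetal liver haematopoietic stem cells, and ESC were 78 embryonic stem cells. The labels give no strain, genotype, age, host, sort gate or treatment for any group, and they name no animal or culture. Each deposited sample was 1 cell, so a group counted as 1 sample and no test between groups was made. The groups also came from different libraries, and what belongs to the library and what to the cells cannot be told apart.

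The proteasome is the main protease of the cytosol and nucleus. Its core is a barrel of stacked α and β rings, with the protease sites on the inner face of 3 of the β subunits. The regulatory cap binds ubiquitin-tagged proteins, removes the tag and feeds the chain into the barrel with a ring of ATPases. In leukocytes and under interferon, the constitutive catalytic subunits Psmb5, Psmb6 and Psmb7 can be replaced by Psmb8, Psmb9 and Psmb10, and the Psme1-Psme2 ring can take the place of the cap. That form, the immunoproteasome, is known for making peptides for presentation on class I molecules.

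A gene was called detected in a cell at a TPM of at least 1. The cells held 3 pairs with nearly identical profiles, 2 in Eng_ES-HSC and 1 in ESC, and each pair was averaged and counted as 1 cell. Leaving out cells with fewer than 1000 detected genes kept 21 cells of Eng_ES-HSC, 76 of Eng_BM-HSC, 87 of FL_HSC and 77 of ESC. They had medians of 1609, 2585, 4233 and 5433 detected genes in that order, and read depth cannot be had from TPM. All 8 ESC markers were in at least 50% of ESC cells, and 8 of 12 HSC markers were in at least 50% of FL_HSC cells, against 6 of 12 in Eng_BM-HSC cells. In Eng_ES-HSC cells 0 of 12 HSC markers reached 50% of cells, and 7 of 12 were seen in any cell. Meis1, Mecom, Procr, Erg and Tek were in none of these cells, so the HSC part of their label was not borne out by these markers. All 12 granulocyte markers were seen in any Eng_ES-HSC cell, and 3 of 12 reached 50% of cells. Their summed TPM lay between 0 and 536442 per cell, with a median of 834. In Eng_BM-HSC cells 7 of the 12 were seen, with a summed TPM between 0 and 4637 and a median under 1, and in FL_HSC cells 2 of 12 were seen, with a median of 5.46. T and NK cell markers were also seen in Eng_ES-HSC cells, 6 of 7 in any cell and 0 of 7 in at least 50% of cells. Their median summed TPM was 274, against 8.04 in Eng_BM-HSC and 0 in FL_HSC cells. Summed erythroid markers had a median of 2.89 TPM in Eng_ES-HSC, 0 in Eng_BM-HSC and 430 in FL_HSC cells. The highest cells held 37347, 2940 and 8559 TPM in the same order. The part of this difference in cell content in the results below was not tested.

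Promoter sequence from RefSeq (GRCm38.p6) was available for 42 of the 50 genes, and 4 stretches are printed to show 1 gene of the core, 2 of the cap and 1 of the immunoproteasome that the results below describe in full. Capitals mark the match to a short motif on either strand within the 250 bases before the start. For Psmb5 it is TGACNNNGC, the antioxidant response element bound by factors of the Nfe2l1 family, 47 to 39 bases before the start (chr14:54618023-54618245, minus strand). For Psmd2 it is CCGGAAG, an ETS-type motif read here on the other strand, 26 to 20 bases before the start (chr16:20651402-20651651, plus strand). For Psmb8 it is TTCNNNGAA, the gamma-activated site, 97 to 89 bases before the RefSeq start and inside an exon annotated for the gene in GENCODE (chr17:34198088-34198116, plus strand). The Psmc4 stretch holds none of the motifs searched (chr7:28050102-28050342, minus strand).
Psmb5: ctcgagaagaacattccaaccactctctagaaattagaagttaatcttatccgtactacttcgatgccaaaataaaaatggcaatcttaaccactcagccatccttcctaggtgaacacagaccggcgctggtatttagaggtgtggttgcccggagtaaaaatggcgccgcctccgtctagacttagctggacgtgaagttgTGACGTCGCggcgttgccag
Psmd2: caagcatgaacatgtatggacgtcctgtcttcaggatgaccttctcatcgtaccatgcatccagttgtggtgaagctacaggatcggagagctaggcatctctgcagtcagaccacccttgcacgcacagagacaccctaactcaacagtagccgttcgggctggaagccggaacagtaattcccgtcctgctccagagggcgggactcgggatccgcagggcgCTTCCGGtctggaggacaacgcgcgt
Psmb8: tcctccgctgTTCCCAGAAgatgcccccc
Psmc4: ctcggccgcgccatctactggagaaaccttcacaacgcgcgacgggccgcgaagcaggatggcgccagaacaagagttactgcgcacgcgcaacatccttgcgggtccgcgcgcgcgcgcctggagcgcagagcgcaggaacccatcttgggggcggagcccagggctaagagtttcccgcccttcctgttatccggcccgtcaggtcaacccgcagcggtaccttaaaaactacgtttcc

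The ETS-type motif was in the windows of 8 of 14 cap genes (57.1%), which were Psmc1, Psmc2, Psmc6, Psmd2, Psmd4, Psmd6, Psmd11 and Psmd12, in 1 of 11 core genes (Psma6), and in 0 of 5 immunoproteasome genes, against 6.91% of all 32851 promoter windows. Outside these lists the ETS-type motif was in 1 of 6 assembly factor genes (Psmg1) and in Psme3, Psme4 and Psmc3ip. The antioxidant response element was in the windows of Psmb5, Psmb6, Psmc6, Psmd12 and Psmd9, and in 10.2% of all windows. The gamma-activated site was in 1 of 5 immunoproteasome genes, Psmb8, in 1 of 6 assembly factor genes, Psmg1, and in 7.02% of all windows. The interferon-stimulated response element was in 0 of 5 immunoproteasome windows, in those of Psmb3, Psmd4 and Psmd9, and in 2.98% of all windows. The CCAAT box was in 6 of 11 core windows, 4 of 14 cap windows and 33.8% of all windows. A match describes letters in a window and is no evidence of binding.

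As medians over all kept cells, core shares of a cell's transcripts lay closer together across the groups than cap shares. Cap shares were lowest in Eng_ES-HSC and next lowest in Eng_BM-HSC. Core genes made up a median of 0.813% of the non-mitochondrial TPM of a cell in Eng_ES-HSC, 0.647% in Eng_BM-HSC, 0.762% in FL_HSC and 1.13% in ESC. The means were 1.001 ± 1.426%, 0.906 ± 1.96%, 0.779 ± 0.301% and 1.03 ± 0.466% (SD over cells, n = 21, 76, 87 and 77). Cap genes made up a median of 0.0278% in Eng_ES-HSC, 0.150% in Eng_BM-HSC, 0.464% in FL_HSC and 0.598% in ESC. The cap means were 0.137 ± 0.274%, 0.326 ± 0.705%, 0.498 ± 0.307% and 0.596 ± 0.342%. The ranges overlapped in every pair of groups: the highest cell had 1.19% cap transcripts among Eng_ES-HSC and 4.80% among Eng_BM-HSC, and the lowest had 0.132% among FL_HSC and 0.0880% among ESC. In cells with 1000 to 2000 genes the core medians lay further apart, at 0.160% in Eng_ES-HSC, 0.0228% in Eng_BM-HSC and 0.799% in FL_HSC. The cap medians there were 0.00677%, 0.0140% and 0.767%. At 3000 to 4000 genes the core medians were 0.921%, 1.06% and 0.731% and the cap medians 0.219%, 0.199% and 0.374%.

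Summed over genes, mean core TPM exceeded mean cap TPM by a factor of 7.29 in Eng_ES-HSC, 3.23 in Eng_BM-HSC, 1.71 in FL_HSC and 1.77 in ESC. The summed core levels were 6159, 6145, 5180 and 5994 TPM in that order, and the summed cap levels were 844, 1904, 3034 and 3385 TPM. Single cells carried much of some means in the engrafted groups: 1 cell gave 76.05% of all Psmb2 TPM in Eng_ES-HSC and 96.6% of all Psmb4 TPM in Eng_BM-HSC. With each gene's highest cell left out, the summed core level was 2123 TPM in Eng_ES-HSC and 4004 TPM in Eng_BM-HSC, so the likeness of the core sums rested on those cells, while the ratios became 8.93, 3.64, 1.79 and 1.81.

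**Figure D1:**
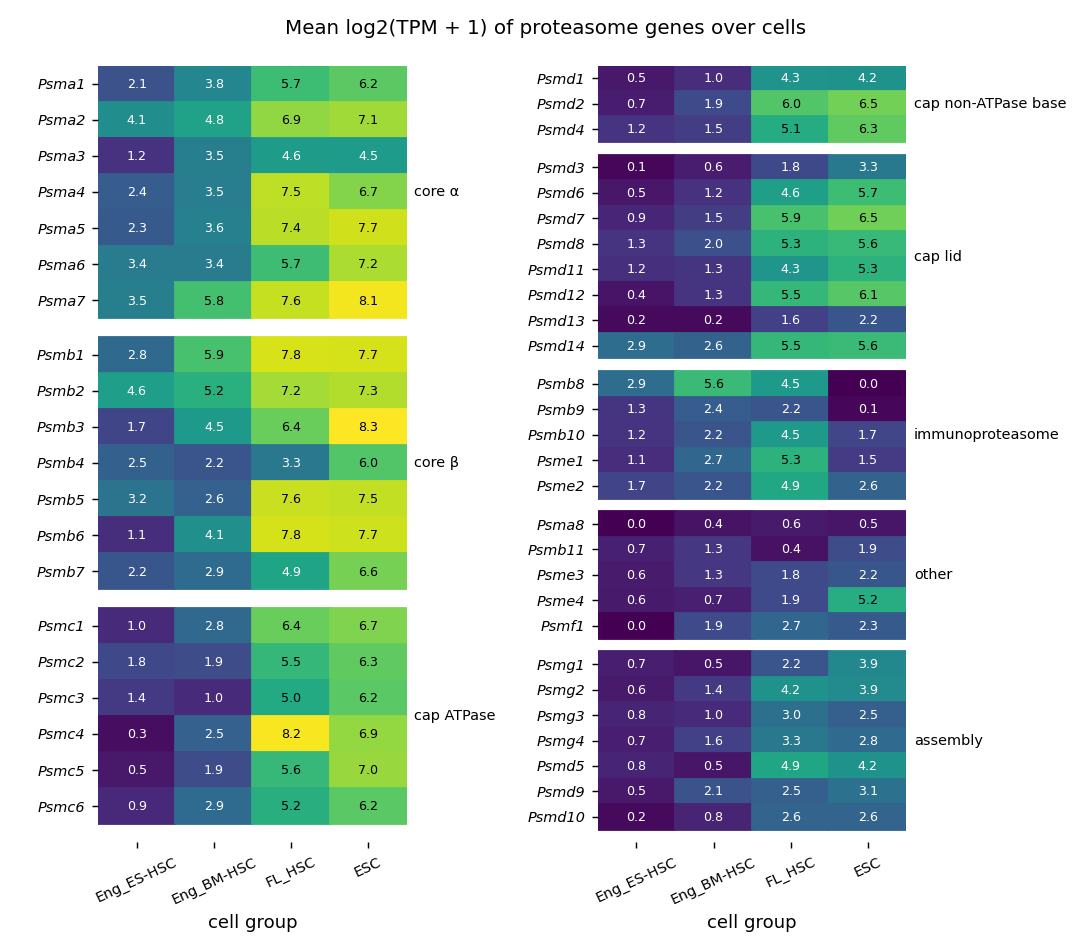
Mean log2(TPM + 1) over cells of the proteasome genes by role (rows) in the 4 groups (columns), with the value printed in each square; Psme2b and Psmc3ip are not drawn. Most core and cap rows are brightest in FL_HSC and ESC, the cap rows are darkest in both engrafted groups, and Psmb8 is near 0 in ESC.

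Levels were next compared gene by gene as differences of mean log2(TPM + 1) over cells, with a difference of at least 1 in either direction as the size counted. Against FL_HSC, nearly all core and cap genes were lower in Eng_ES-HSC. The median difference was -3.81 for the core and -4.05 for the cap, beside -0.52 over all 13239 genes tested. In this comparison 13 of 14 core genes and 17 of 17 cap genes stood at -1 or below, as did 35% of all genes tested. The exception was Psmb4, a non-catalytic β subunit, at -0.81. No core or cap gene was higher by at least 1, a size that 2.26% of all genes tested reached.

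In Eng_BM-HSC against FL_HSC the core differed by a median of -1.95 and the cap by -3.60, beside -0.39 over all genes. All 14 core and 17 cap genes were lower by at least 1, against a background of 29.1%. Taken as log2 of the mean TPM, which gives single high cells more weight, the core median was 0.013 and the cap median -0.999, so the direction of the core turned with the kind of average. Between the engrafted groups the differences were smaller. Eng_ES-HSC minus Eng_BM-HSC gave a median of -1.17 for the core and -0.60 for the cap, beside -0.10 over all genes, with 8 of 14 core and 5 of 17 cap genes lower by at least 1 (background 8.55%) and none higher (background 2.22%). The core genes lower there were led by Psmb1 (-3.07), Psmb6 (-3.06) and Psmb3 (-2.80), and the cap genes by the ATPases Psmc4 (-2.26), Psmc6 (-1.95) and Psmc1 (-1.78).

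Against ESC, the engrafted groups again stood far lower. Eng_ES-HSC minus ESC was -4.34 for the core and -5.03 for the cap, with 14 of 14 and 17 of 17 genes lower by at least 1 (background 40.9%). Eng_BM-HSC minus ESC was -3.40 and -4.35, with 13 of 14 and 17 of 17 lower (background 35.6%), the exception being Psma3 at -0.99. FL_HSC and ESC were close, at -0.22 for the core and -0.64 for the cap, beside -0.12 over all genes. There 4 core genes (Psma6, Psmb3, Psmb4 and Psmb7) and 6 cap genes (Psmc3, Psmc5, Psmd3, Psmd4, Psmd6 and Psmd11) were lower in FL_HSC by at least 1 (background 17.7%), and 1 cap gene, Psmc4, was higher (background 10.7%). The comparisons share groups, so they are not independent of each other.

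Among the 31 core and cap genes, the order of mean levels was most alike between FL_HSC and ESC, with a Spearman rho of 0.869, beside 0.666 over all genes tested. It was least alike between Eng_ES-HSC and FL_HSC, with 0.405, beside 0.619 over all genes. For Eng_BM-HSC rho was 0.678 with FL_HSC and 0.723 with ESC. These are descriptions across genes, which are not independent replicates.

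Psmc4, one of the 6 ATPases of the cap, stood lowest of all genes in Eng_ES-HSC minus FL_HSC. It lay on chromosome 7 (28041707 to 28050101, minus strand, GRCm38). Its TPM had a lowest, median and highest value of 0, 0 and 18.9 in Eng_ES-HSC cells. In Eng_BM-HSC cells the lowest was 0, the median under 1 and the highest 2110. In FL_HSC cells the values were 7.16, 441 and 12455, and in ESC cells 2.98, 226 and 1072. Psmc4 was detected in 2 of 21 Eng_ES-HSC cells (9.52%, exact 95% binomial interval 1.17% to 30.4%), in 34 of 76 Eng_BM-HSC cells (44.7%, 33.3% to 56.6%), in 87 of 87 FL_HSC cells and in 77 of 77 ESC cells. The intervals cover the counting of cells only.

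The Psmc4 difference was -7.95 for Eng_ES-HSC minus FL_HSC, the lowest of all 13239 genes tested, and -5.68 for Eng_BM-HSC minus FL_HSC, the fourth lowest. It was 1.28 for FL_HSC minus ESC. In cells with 2000 to 3000 genes Psmc4 was detected in 0 of 5 Eng_ES-HSC, 23 of 47 Eng_BM-HSC and 7 of 7 FL_HSC cells, and in cells with 1000 to 2000 genes in 1 of 12, 6 of 18 and 11 of 11. Every FL_HSC and ESC cell thus held the transcript at every gene number, while at most 48.9% of Eng_BM-HSC cells did in any range of 1000 genes.

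Psmd2, a large scaffold of the cap base that takes up ubiquitin carriers, was also lowest in Eng_ES-HSC and next lowest in Eng_BM-HSC, but unlike Psmc4 did not stand higher in FL_HSC than in ESC. Its lowest, median and highest TPM were 0, 0 and 43.9 in Eng_ES-HSC, 0, 0 and 894 in Eng_BM-HSC, 0, 126 and 2283 in FL_HSC, and 0.468, 146.5 and 1155 in ESC. It was detected in 23.8% of Eng_ES-HSC cells (8.22% to 47.2%), 35.5% of Eng_BM-HSC cells (24.9% to 47.3%), 95.4% of FL_HSC cells (88.6% to 98.7%) and 98.7% of ESC cells (92.98% to 99.97%). The difference was -5.37 for Eng_ES-HSC minus FL_HSC and -4.18 for Eng_BM-HSC minus FL_HSC. Psmd2 lay on chromosome 16 (20651652 to 20663414, plus strand, GRCm38).

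Other cap subunits followed with smaller differences. For Eng_ES-HSC minus FL_HSC, the ATPases ranged from -3.67 (Psmc3) to -7.95 (Psmc4), the base scaffolds and ubiquitin receptor Psmd4 from -3.72 (Psmd1) to -5.37 (Psmd2), and the lid from -1.36 (Psmd13) to -5.08 (Psmd12). Psmd14, the lid enzyme that cuts off the ubiquitin chain, was the cap gene with the highest mean log2 level in Eng_ES-HSC. It was detected in 47.6% of Eng_ES-HSC, 40.8% of Eng_BM-HSC, 78.2% of FL_HSC and 88.3% of ESC cells. Psmd3 and Psmd13 were low in all groups, with mean levels of at most 28.5 TPM. Psmd13 was in 4.76% of Eng_ES-HSC, 5.26% of Eng_BM-HSC, 32.2% of FL_HSC and 59.7% of ESC cells.

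**Figure D2:**
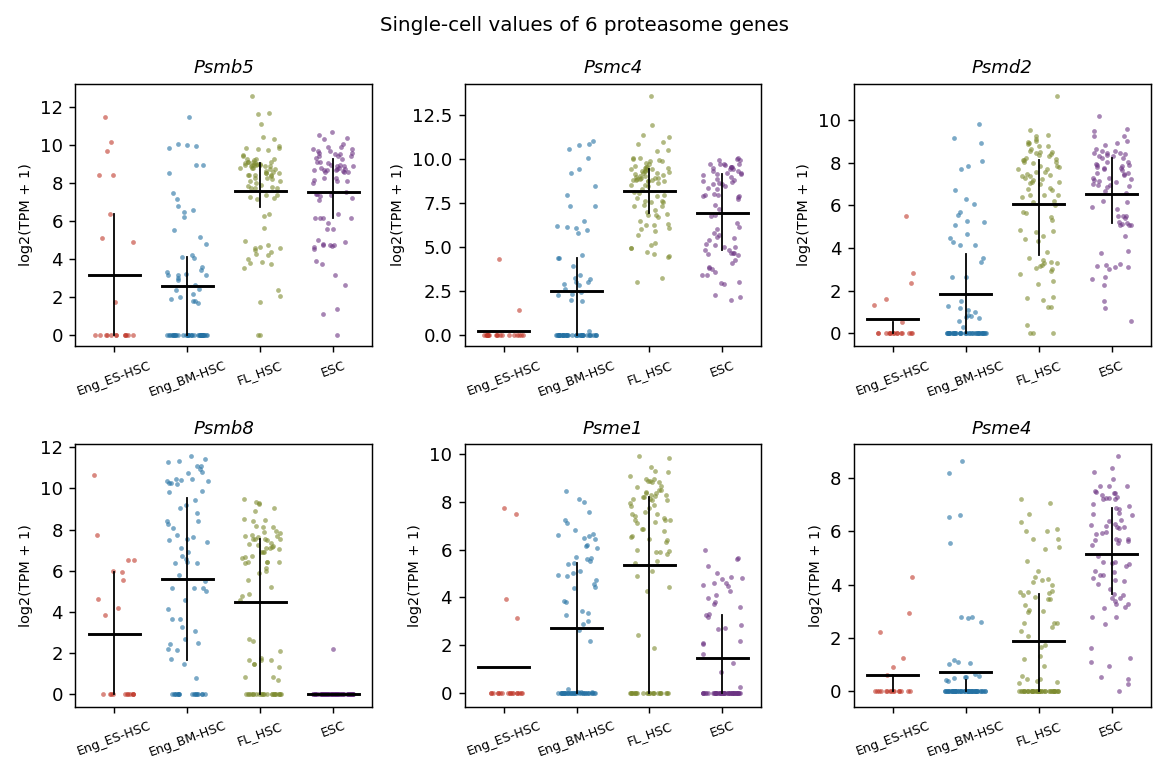
Log2(TPM + 1) of 6 proteasome genes in each kept cell (points) of the 4 groups, with the mean as a horizontal bar and the quartiles as a vertical line. Psmc4 is at or near 0 in most engrafted cells and well above 0 in every FL_HSC and ESC cell, and Psmb8 is high in many Eng_BM-HSC and FL_HSC cells and detected in 1 of 77 ESC cells, and Psme4 is highest in ESC.

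Of the core genes, Psmb5, which carries the chymotrypsin-like site, had the largest difference between Eng_BM-HSC and FL_HSC. Its lowest, median and highest TPM were 0, 0 and 2868 in Eng_ES-HSC, 0, 1.12 and 2912 in Eng_BM-HSC, 0, 345 and 6263 in FL_HSC, and 0, 378 and 1642 in ESC. It was detected in 42.9% of Eng_ES-HSC cells (21.8% to 65.98%), 50% of Eng_BM-HSC cells (38.3% to 61.7%), 97.7% of FL_HSC cells (91.9% to 99.7%) and 98.7% of ESC cells (92.98% to 99.97%). The ranges of all 4 groups overlapped. Eng_BM-HSC minus FL_HSC was -5.05 and Eng_ES-HSC minus FL_HSC was -4.45. Psmb5 lay on chromosome 14 (54614119 to 54618022, minus strand, GRCm38).

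Psmb6 and Psmb7 carry the caspase-like and trypsin-like sites. Psmb6 was detected in 14.3% of Eng_ES-HSC, 51.3% of Eng_BM-HSC, 94.3% of FL_HSC and 84.4% of ESC cells, with median TPM of 0, 3.85, 443 and 907. Its difference for Eng_ES-HSC minus FL_HSC, -6.67, was the lowest of the core. Psmb7 was detected in 28.6%, 43.4%, 75.9% and 96.1% of cells in the same order of groups. Between FL_HSC and ESC the non-catalytic Psmb4 differed most of the core, by -2.72. Psmb4 was detected in 55.2% of FL_HSC cells, with a median of 1.52 TPM, and in 90.9% of ESC cells, with a median of 139 TPM. Psmb3, another structural β subunit, differed by -1.91, with medians of 260 TPM in FL_HSC and 760 TPM in ESC.

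The core genes best kept in Eng_ES-HSC were Psmb2 and the α subunit Psma2, with mean log2 levels of 4.61 and 4.05 and detection in 52.4% and 57.1% of cells. They were the 2 core genes found in at least 50% of Eng_ES-HSC cells, against 10 of 14 in Eng_BM-HSC and 14 of 14 in both FL_HSC and ESC. Of the 17 cap genes, 0 were in at least 50% of Eng_ES-HSC cells, 1 (Psmc6, in 55.3%) in Eng_BM-HSC, 15 in FL_HSC and 17 in ESC. A transcript that was absent from a cell and one that was present but missed cannot be told apart here.

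The immunoproteasome genes followed another order of groups. By mean log2(TPM + 1), Psmb8 and Psmb9 were near 0 in ESC and highest in Eng_BM-HSC, and Psmb10, Psme1 and Psme2 were highest in FL_HSC and lowest in Eng_ES-HSC. Psmb8, the inducible counterpart of Psmb5, had a lowest, median and highest TPM of 0, 0 and 1593 in Eng_ES-HSC, 0, 82.7 and 3008 in Eng_BM-HSC, 0, 70.1 and 711 in FL_HSC, and 0, 0 and 3.57 in ESC. It was detected in 10 of 21 Eng_ES-HSC cells (47.6%, 25.7% to 70.2%), 58 of 76 Eng_BM-HSC cells (76.3%, 65.2% to 85.3%), 61 of 87 FL_HSC cells (70.1%, 59.4% to 79.5%) and 1 of 77 ESC cells (1.30%, 0.0329% to 7.02%). The mean TPM was 105.2, 504, 121 and 0.0464 in that order. In Eng_ES-HSC 1 cell held 72.1% of the total, and the mean without it was 30.9 TPM.

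Of the immunoproteasome genes Psmb8 alone stood at least 1 above FL_HSC in Eng_BM-HSC, at 1.12, a size in that direction that 1.84% of all genes tested reached. Eng_ES-HSC minus Eng_BM-HSC was -2.68. Over FL_HSC minus ESC it was 4.47. The gene lay on chromosome 17 (34197721 to 34201454, plus strand, GRCm38), 9956 bases from Psmb9. Psmb9 overlaps the transporter gene Tap1 on the other strand, and since the strand setting is not given in the sources used here, reads of the pair may not be separable.

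Psmb9 was detected in 28.6% of Eng_ES-HSC, 39.5% of Eng_BM-HSC, 36.8% of FL_HSC and 2.60% of ESC cells, and Psmb10 in 23.8%, 42.1%, 74.7% and 49.4%. Psmb10 averaged 99.7 ± 123 TPM in FL_HSC (SD, n = 87 cells) and 9.36 ± 17.1 TPM in ESC (n = 77). Psme1 and Psme2 encode the subunits of the inducible activator ring. Psme1 was detected in 19.05%, 50%, 72.4% and 37.7% of cells in the same order of groups, and Psme2 in 28.6%, 34.2%, 64.4% and 54.5%. Psme2b, a gene of 837 bases, shares 76.5% of its 31-base words with Psme2, so reads of these 2 genes are uncertain.

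All 5 immunoproteasome genes were higher in FL_HSC than in ESC by at least 1 (background 10.7%), with a median difference of 2.71. Against ESC, 3 of 5 were higher in Eng_BM-HSC (Psmb8, Psmb9 and Psme1; median 1.24, background 3.22%) and 2 of 5 in Eng_ES-HSC (Psmb8 and Psmb9; median -0.39, background 2.23%). Against FL_HSC, 4 of 5 were lower in Eng_ES-HSC (median -3.22, background 35%) and 3 of 5 in Eng_BM-HSC (Psmb10, Psme1 and Psme2; median -2.27, background 29.1%). Of the cells with Psmb9, 100% in Eng_ES-HSC (6 of 6), 86.7% in Eng_BM-HSC and 78.1% in FL_HSC also held Psmb8. Of the cells with Psme2, 16.7% in Eng_ES-HSC, 84.6% in Eng_BM-HSC, 92.9% in FL_HSC and 57.1% in ESC also held Psme1.

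Over all kept cells, the share of catalytic transcripts that was inducible was highest in Eng_BM-HSC. Psmb8, Psmb9 and Psmb10 together made up 19.8% of the mean TPM of the 6 catalytic genes in Eng_ES-HSC, 48.5% in Eng_BM-HSC, 17.6% in FL_HSC and 0.726% in ESC. For Psmb8 with Psmb5 alone the inducible share was 28.1%, 80.6%, 19.2% and 0.0115% in the same order. For Psmb10 with Psmb7 it was 8.29%, 45.04%, 40.9% and 3.48%, and for Psmb9 with Psmb6 10.3%, 14.99%, 6.39% and 0.170%. In Eng_BM-HSC 1 cell gave 37.2% of all Psmb10 TPM. With each gene's highest cell left out, mean Psmb10 and Psmb7 were 73.4 and 115.8 TPM in Eng_BM-HSC. In FL_HSC they were 93.8 and 135.3 TPM, so the order of these groups for this pair rested on such cells. In single cells the share had a median of 27.1% in 17 Eng_ES-HSC cells with any of the 6 genes detected, 56.4% in 74 Eng_BM-HSC, 15.8% in 87 FL_HSC and 0.0603% in 77 ESC cells. The cell values ran from 0 to 100% in both engrafted groups, from 0 to 70.7% in FL_HSC and from 0 to 91.8% in ESC.

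In cells with 1000 to 3000 genes the inducible share was 8.07% in 17 Eng_ES-HSC, 52.6% in 65 Eng_BM-HSC, 7.94% in 18 FL_HSC and 25.03% in 6 ESC cells. The ESC value came largely from 1 cell with 39.7 TPM of Psmb9, beside a summed constitutive mean of 20.4 TPM. In the 4 ESC cells with 2000 to 3000 genes the median share of single cells was 0%. The 18 FL_HSC cells had a median of 70.998% mitochondrial TPM and 18.5 TPM over their detected core values, against 8.42% and 370 TPM in the other FL_HSC cells, and the part of this in the share was not tested. For Psmb8 with Psmb5 the inducible share was 8.41% in Eng_ES-HSC, 88.01% in Eng_BM-HSC and 7.40% in FL_HSC. Gene number still differed in this window, with medians of 1381, 2468 and 1510.5 genes in that order. The median share of single cells over all 6 genes was then taken at 1000 to 2000, 2000 to 3000 and 3000 to 4000 genes. It was 86.4%, 61.7% and 26.7% in Eng_BM-HSC, 4.83%, 6.84% and 18.99% in FL_HSC, and 99.99%, 0.465% and 22.5% in Eng_ES-HSC. The groups thus lay closer together at 3000 to 4000 genes, from 4 Eng_ES-HSC, 11 Eng_BM-HSC and 20 FL_HSC cells. The 2 lower ranges held 12 and 5 Eng_ES-HSC cells, with medians of 2 and 8 core and 1 and 3 immunoproteasome genes detected. Shares of single Eng_ES-HSC cells ran from 0 to 100% and from 0 to 84.3% in these ranges. Some of the 12 cells had no share, for want of the 6 genes. The Eng_ES-HSC medians of 99.99% and 0.465% are therefore no steady levels. Psmb8 was in none of the 6 ESC cells with 1000 to 3000 genes (exact interval up to 45.9%). Psmb8 was detected in 38 of 47 Eng_BM-HSC cells with 2000 to 3000 genes (80.9%, 66.7% to 90.9%), against 4 of 7 FL_HSC cells (57.1%, 18.4% to 90.1%), and these intervals overlapped. In Eng_ES-HSC cells Psmb8 was in 8 of 17 cells with the neutrophil gene S100a8 and in 2 of 4 cells without it. With and without the erythroid gene Hba-a2 it was in 3 of 10 and 7 of 11 cells. For the T cell gene Lck the counts were 5 of 9 and 5 of 12, and for the leukocyte gene Ptprc 6 of 10 and 4 of 11. These counts are small, and the part of cell content in Psmb8 detection was not tested.

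**Figure D3:**
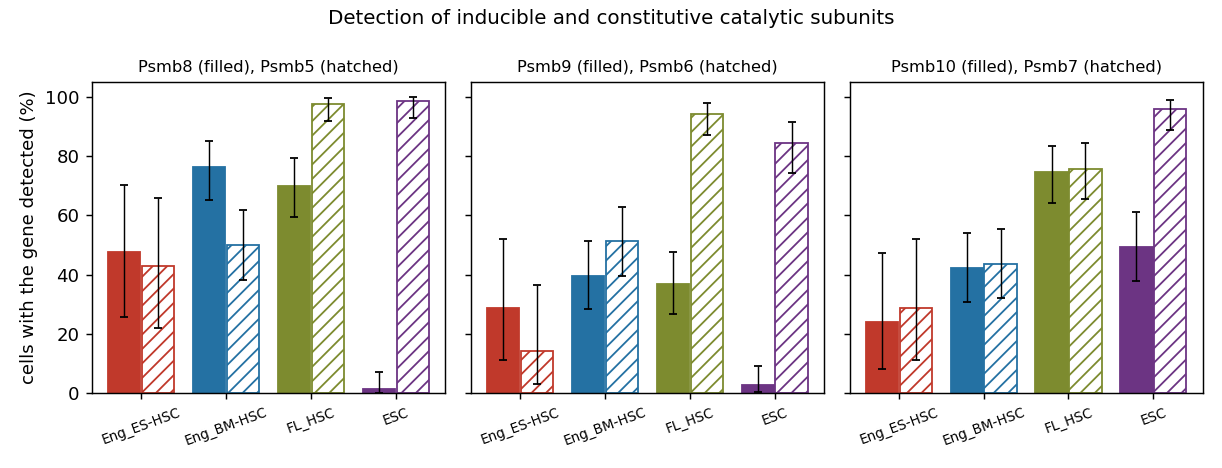
Share of cells (%) with each inducible catalytic subunit (filled bars) and its constitutive counterpart (hatched bars) detected in the 4 groups; whiskers are exact 95% binomial intervals, which cover the counting of cells only. Psmb8 is found in more Eng_BM-HSC cells than Psmb5, while in FL_HSC and ESC Psmb5 and Psmb6 are found in more cells than Psmb8 and Psmb9.

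Since the groups differed in gene number, the counts of subunits per cell were set against it. A median of 4 of 14 core genes was detected per cell in Eng_ES-HSC, 9 in Eng_BM-HSC, 13 in FL_HSC and 14 in ESC. For the cap the medians were 2, 5, 14 and 16 of 17, and for the immunoproteasome 1, 2, 4 and 1 of 5. In cells with 1000 to 2000 genes, which held 12 of the 21 Eng_ES-HSC cells, the core medians were 2, 3.5, 9 and 6 and the cap medians 1, 3, 8 and 6.5, from 12, 18, 11 and 2 cells, so at this gene number the engrafted groups lay below FL_HSC for the core as well as the cap. In cells with 2000 to 3000 genes the core medians were 8, 9, 8 and 10.5 in the same order, from 5, 47, 7 and 4 cells. The cap medians in those cells were 6, 5, 9 and 12.5. With 3000 to 4000 genes the core medians were 11, 11, 12 and 11 and the cap medians 7.5, 8, 13 and 13, from 4, 11, 20 and 7 cells. There the highest Eng_ES-HSC cell held 9 cap genes and the highest Eng_BM-HSC cell 13, against a lowest of 10 in both FL_HSC and ESC. The immunoproteasome medians there were 3, 4, 4 and 0.

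**Figure D4:**
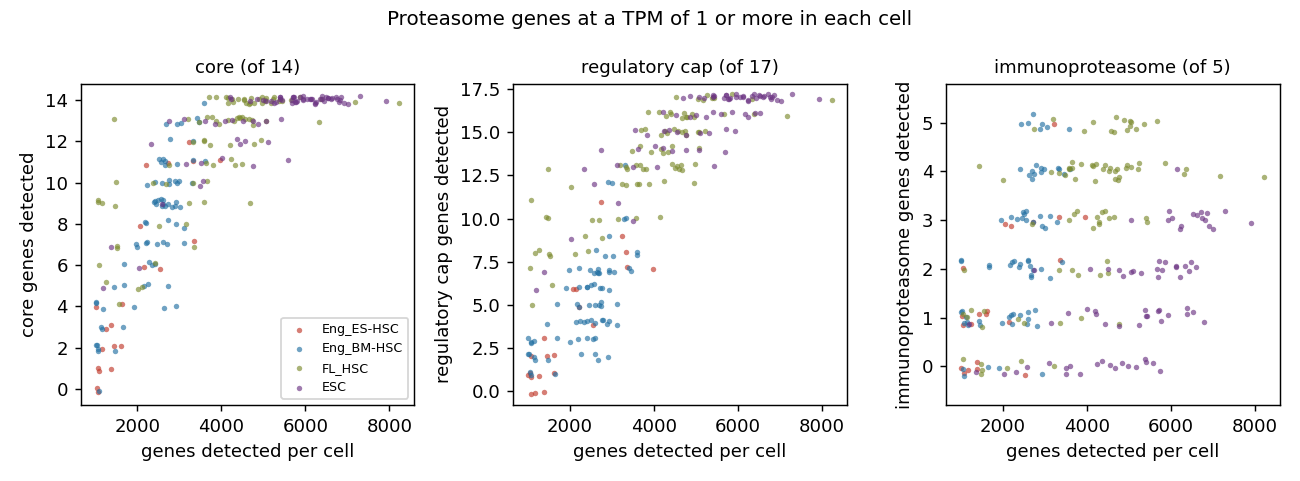
Number of core, cap and immunoproteasome genes at a TPM of 1 or more in each kept cell (vertical, shifted slightly at random) against the number of genes detected in the cell (horizontal), coloured by group. At 3000 to 4000 genes the groups overlap for the core, with medians of 11 to 12, while for the cap the engrafted groups, with medians of 7.5 and 8, lie below FL_HSC and ESC, with 13 each.

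Pairs of cells matched one to one on gene number within 10% gave the same comparisons at equal gene number. The core median came to 0.10 in Eng_ES-HSC minus Eng_BM-HSC (20 pairs), -0.35 in Eng_ES-HSC minus FL_HSC (19 pairs) and 0.47 in Eng_BM-HSC minus FL_HSC (30 pairs), while the median over all genes was 0 in each. The cap kept its direction, with medians of -0.37, -1.31 and -1.31. Against FL_HSC, 11 of 17 cap genes stood at -1 or below in Eng_ES-HSC (background 9.71%) and 10 of 17 in Eng_BM-HSC (background 8.66%), and none was higher (backgrounds 7.89% and 5.26%). Of the core, 5 were lower and 3 higher in Eng_ES-HSC, and 4 lower and 4 higher in Eng_BM-HSC. The lowest range of gene number gave another picture for the core. In cells with 1000 to 2000 genes, 12 of Eng_ES-HSC, 18 of Eng_BM-HSC and 11 of FL_HSC, the core median was -1.60 in Eng_ES-HSC minus FL_HSC and -1.04 in Eng_BM-HSC minus FL_HSC. In Eng_ES-HSC 9 core genes stood at -1 or below (background 9.18%) and 2 at 1 or above (background 7.26%), and in Eng_BM-HSC 7 (background 7.95%) and 1 (background 4.65%). The cap medians there were -1.80 and -1.38, with 10 and 11 of 17 genes at -1 or below. The matched core medians near 0 thus did not hold in every range of gene number, while the cap medians stood below -1 in both sets of cells. Psmc4 was the lowest of all 13239 genes in both matched comparisons, at -7.57 and -5.66. Psmd2 stood at -4.80 and -3.11, Psmd12 at -2.70 and -2.80, Psmd7 at -2.90 and -2.09, and Psmb5 at -3.36 and -3.91.

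In the matched Eng_ES-HSC and Eng_BM-HSC cells, 2 core genes were lower (Psma3 and Psmb6) and 4 higher (Psma4, Psma6, Psmb2 and Psmb5), and 3 cap ATPases were lower (Psmc4, Psmc5 and Psmc6) while Psmc3 and Psmd14 were higher (backgrounds 5.23% lower and 5.75% higher). Psmb8 was lower in Eng_ES-HSC, at -1.05. In the matched Eng_BM-HSC and FL_HSC cells Psmb8 was higher in Eng_BM-HSC, at 1.49, as was Psmb9, at 1.30, and the immunoproteasome median turned to 0.53.

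Mitochondrial transcripts moved with these matched sets. Their median share of the TPM was 20.0045% in the matched Eng_ES-HSC cells and 53.5% in their FL_HSC partners, and 12.8% in Eng_BM-HSC and 20.3% in their FL_HSC partners. With cells over 50% mitochondrial left out, an alternative chosen after the data had been seen, 11 pairs of Eng_ES-HSC and FL_HSC cells remained. They gave medians of -1.48 for the core and -2.90 for the cap. The 17 pairs of Eng_BM-HSC and FL_HSC cells gave 0.75 for the core and -2.15 for the cap, with Psmc4 at -9.49 and -6.55 in these sets. The cap difference from FL_HSC was thus at least as large without those cells, while the core median in Eng_ES-HSC moved further below 0. In single cells at or under 50%, cap genes made up a median of 0.0278%, 0.182%, 0.464% and 0.676% of non-mitochondrial TPM in the groups in the order above.

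Matching with ESC drew on few and unusual ESC cells. The 13 ESC cells with the fewest genes had a median of 84.98% mitochondrial TPM, against 16.6% in the other 64, and the core values detected in them had a median of 10.7 TPM, against 417 TPM in the others. At matched gene number the core median was 1.13 in Eng_ES-HSC minus ESC (10 pairs), with 10 of 14 genes higher (background 14.5%) and 1 lower (background 5.16%). It was 1.31 in Eng_BM-HSC minus ESC (13 pairs), with 9 of 14 higher (background 16.3%) and none lower (background 5.7%). The cap medians were -0.59 and -0.50. The ESC partners had medians of 86.4% and 84.98% mitochondrial TPM, against 25.9% in Eng_ES-HSC and 13.8% in Eng_BM-HSC, and the part of this in the core values was not tested.

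FL_HSC and ESC could be matched in 52 pairs. The core median was 1.46, with 10 of 14 genes higher in FL_HSC (background 24%), the cap median 0.71 with 7 of 17 higher, and the immunoproteasome median 4.46 with 5 of 5 higher, and none of the 3 lists held a gene lower by at least 1 (background 9.87%). The median mitochondrial share was 8.07% in FL_HSC and 36.8% in ESC in these pairs. In 29 pairs without cells over 50% mitochondrial the medians were 0.16 for the core, 0.21 for the cap and 4.76 for the immunoproteasome. The immunoproteasome median for FL_HSC minus ESC thus stood above 1 in both sets of pairs. In the cells with 1000 to 3000 genes, 18 of FL_HSC and 6 of ESC, Psmb9 and Psme2 were lower in FL_HSC. Each was detected in 1 of those 6 ESC cells. The part of gene number and mitochondrial share in these differences was not tested.

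**Figure D5:**
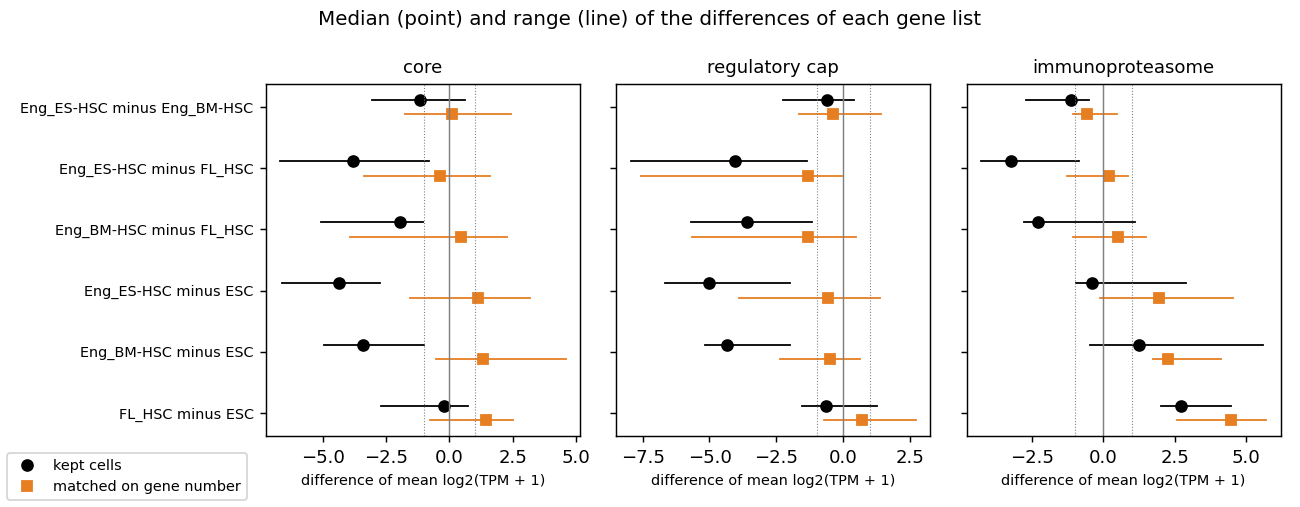
Median (point) and lowest to highest value (line) of the member differences in mean log2(TPM + 1) for the core, cap and immunoproteasome genes in 6 comparisons, in all kept cells (black circles) and in cells matched on gene number (orange squares); dotted lines mark -1 and 1. For Eng_ES-HSC and Eng_BM-HSC against FL_HSC the matched core medians are -0.35 and 0.47 and both matched cap medians -1.31; the range of 1000 to 2000 genes, where the core medians were -1.60 and -1.04, is not drawn.

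Among the other activators, Psme4, which encodes the large single-chain activator of the nucleus, was highest in ESC. Its lowest, median and highest TPM were 0, 0 and 18.4 in Eng_ES-HSC, 0, 0 and 397 in Eng_BM-HSC, 0, 0.350 and 149 in FL_HSC, and 0, 49.8 and 456 in ESC. It was detected in 19.05%, 17.1%, 45.98% and 93.5% of cells in that order. FL_HSC minus ESC was -3.29, the lowest of the 50 proteasome genes in that comparison, and -2.52 in matched cells. Psme3, the nuclear homologue of the inducible activator, stayed low in all groups, with mean log2 levels of 0.61, 1.31, 1.85 and 2.21. Psmf1, an inhibitor of the core, was detected in 0 of 21 Eng_ES-HSC cells (exact interval up to 16.1% of cells with a detected transcript, or 14.3% counted as 3 cells), and in 30.3% of Eng_BM-HSC, 48.3% of FL_HSC and 44.2% of ESC cells.

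The tissue-restricted core subunits were low. Psma8, known from testis, was in 0 of 21 Eng_ES-HSC cells and in 9.21%, 11.5% and 14.3% of Eng_BM-HSC, FL_HSC and ESC cells. Psmb11, known from thymic cortical epithelium and 3410 bases from Psmb5, was in 19.05% of Eng_ES-HSC, 52.6% of Eng_BM-HSC, 11.5% of FL_HSC and 81.8% of ESC cells, at mean levels of 4.15, 3.63, 0.649 and 4.52 TPM. FL_HSC minus ESC for Psmb11 was -1.52, and -1.59 in matched cells.

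The 7 assembly factors followed the core and cap. The core chaperones Psmg1, Psmg2, Psmg3 and Psmg4 and the base chaperones Psmd5, Psmd9 and Psmd10 were all lower in Eng_ES-HSC than in FL_HSC by at least 1 (background 35%), with a median of -2.42. In Eng_BM-HSC 6 of 7 were lower (background 29.1%), with a median of -1.80, and Psmd9 stood at -0.35. Psmd5 had the largest difference, -4.09 in Eng_ES-HSC and -4.44 in Eng_BM-HSC. At matched gene number Psmd5 stood at -1.79 and -2.04, and the list medians were -0.31 and -0.59. Between FL_HSC and ESC, Psmg1 was lower in FL_HSC by at least 1, at -1.72.

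Of 36 partners of the ubiquitin-proteasome pathway listed, 32 were in the table. In Eng_ES-HSC minus FL_HSC 21 of 32 were lower by at least 1 (background 35%) and none higher, with a median of -1.57, and in Eng_BM-HSC minus FL_HSC 15 were lower (background 29.1%) and none higher, with a median of -0.91. In matched cells the medians were 0.20 and 0.03. Among the lowest were the unfolding ATPase Vcp (-4.20) and the core maturation factor Pomp (-3.34) in Eng_ES-HSC, and Txnl1 (-3.47) and the deubiquitinase Uchl5 (-3.13) in Eng_BM-HSC.

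Of the 10 class I genes, 4 were higher and 2 lower in both engrafted groups against FL_HSC by at least 1. Of all genes tested, 2.26% were higher and 35% lower in Eng_ES-HSC, and 1.84% higher and 29.1% lower in Eng_BM-HSC, so the share of class I genes that were lower lay under that of all genes. The class I heavy chain H2-K1 (3.31 and 4.45), β2-microglobulin B2m (1.497 and 2.37) and H2-D1 (1.23 and 1.98) were the largest of those higher in both Eng_ES-HSC and Eng_BM-HSC. The loading chaperones Pdia3 (-5.49 and -4.20) and Calr (-1.23 and -2.66) were those lower. Against ESC, B2m was higher by 8.94 in Eng_ES-HSC, 9.81 in Eng_BM-HSC and 7.44 in FL_HSC. Of 13 interferon pathway genes, 5 stood at -1 or below in Eng_ES-HSC minus FL_HSC (background 35%) and 2 in Eng_BM-HSC minus FL_HSC (background 29.1%), shares near or under those of all genes.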

How the data were processed

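Single-cell RNA-seq values of 316 mouse cells were deposited by the authors as natural log values of TPM + 1. The base of the log was read from the values, since cell totals after reversing it lay between 414503 and 962583 TPM. The submitters' processing notes name HISAT 0.1.6, Salmon 0.3.2 and GRCm38 without their roles. How cells were isolated and sorted, and which kit made the libraries, is not stated in the labels.

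Values were turned back to TPM and analysed as log2(TPM + 1), with detection at a TPM of 1. The unequal cell totals were left as they were in the main values. Cells correlated above 0.9 within a group were averaged (highest other r 0.841), and cells with fewer than 1000 genes left out. Genes with a mean of at least 1 TPM in any group, 13239 in all, were compared as differences of group means, with a difference of 1 counted as a call. No test was made, because each group is 1 sample. Cells were matched one to one on gene number within 10%. Exact binomial intervals (Clopper-Pearson, 95%) and limits for counts of 0 (3 cells) cover counting error only. The member genes and gene lists were chosen with earlier results of these data known. Any proteasome gene could be named; of the other lists, the 3 genes with the largest difference of at least 1 in each direction. Some of these are not reported here. Alternatives were other pseudocounts, cell filters, gene number ranges, averages and detection levels. On simulated data, with Eng_BM-HSC split into 21 and 55 cells, 85% of raised and 98% of lowered genes had the right sign. These rates cover only the genes changed in the simulation, not all 13239, and none was worked out for the proteasome genes. Cap genes had a median detection of 19.05% of cells in Eng_ES-HSC and 30.3% in Eng_BM-HSC, so the rates may not hold for them. Python 3.11.15 with numpy 2.4.6, pandas 2.3.3, scipy 1.17.1 and matplotlib 3.10.9 was used.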

Additional observations from a re-analysis of the deposited data

How the results depend on the processing

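Of the list medians, counts of lower members, inducible shares and detected-gene counts, 14 values that were at least 1 in size turned direction under an alternative. Single-gene differences, all-gene medians and counts of higher members were counted apart, and 9 of those values turned as well. Changes of sign in smaller values were not counted among these. A further 59 values of the first kind and 94 of the second moved by more than the SD over single cells. For counts of members the limit was 1.5 times, and for all-gene medians 0.1. That SD is wide, so values that moved less are not thereby stable. No paired analysis was possible because the replicate numbers shared by groups only number cells and no result comes from a test. Depth is unknown, and fewer than 3 matched pairs without cells over 50% mitochondrial were left for Eng_ES-HSC and Eng_BM-HSC against ESC, so these were not run. The causes of the changes were not tested.

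Matched on gene number, the core median turned to 0.10 in Eng_ES-HSC minus Eng_BM-HSC, 0.47 in Eng_BM-HSC minus FL_HSC, 1.13 in Eng_ES-HSC minus ESC and 1.31 in Eng_BM-HSC minus ESC, and moved to -0.35 in Eng_ES-HSC minus FL_HSC. The cap median was -1.31 in both engrafted groups minus FL_HSC, -0.59 in Eng_ES-HSC minus ESC and -0.50 in Eng_BM-HSC minus ESC. Some medians of less than 1 in size in all kept cells turned from negative to positive. These were the core and cap in FL_HSC minus ESC and the immunoproteasome in Eng_ES-HSC minus ESC. The immunoproteasome median was 0.20 in Eng_ES-HSC minus FL_HSC, 0.53 in Eng_BM-HSC minus FL_HSC (also Psme2) and 1.94 in Eng_ES-HSC minus ESC, and Psmb8 in Eng_ES-HSC minus FL_HSC was 0.25. Members lower by at least 1 numbered 8, 20 and 18 in Eng_ES-HSC minus Eng_BM-HSC, Eng_ES-HSC minus FL_HSC and Eng_BM-HSC minus FL_HSC, against 18, 44 and 41 in all kept cells, and 6, 3 and 8 were higher. The share of all genes lower fell as well, to 5.23%, 9.71% and 8.66%, against 8.55%, 35% and 29.1%. Against ESC they numbered 8, 5 and 2 for Eng_ES-HSC, Eng_BM-HSC and FL_HSC, against 43, 38 and 13. When cells over 50% mitochondrial were also left out, a setting chosen after seeing the data, Eng_ES-HSC minus FL_HSC gave -1.48 for the core and -2.90 for the cap. Eng_BM-HSC minus FL_HSC gave 0.75 for the core, -2.15 for the cap and 0.19 for the immunoproteasome and Psme2, with 18 members lower, and FL_HSC minus ESC had 6 lower.

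In cells with 1000 to 3000 genes, Eng_ES-HSC minus FL_HSC gave -0.29 for the core, -1.53 for the cap and -0.47 for the immunoproteasome, with 18 members lower. Eng_BM-HSC minus FL_HSC gave 1.22 for the core, -0.59 for the cap, 0.78 for the immunoproteasome and Psme2 and 0.58 for Psmb10, with 11 lower. Eng_ES-HSC minus ESC gave 0.11 for the core and -0.67 for the cap, with 11 lower, and Eng_BM-HSC minus ESC gave 1.71 and -0.15, with 4 lower. FL_HSC minus ESC had 3 lower and gave -0.66 for Psmb9 and -0.69 for Psme2, each detected in 1 of 6 ESC cells. The inducible share in ESC was 25.03%, largely from 1 cell. In cells with at least 2000 genes, the core was -2.33 in Eng_ES-HSC minus ESC, Psmb8 was 0.060 in Eng_ES-HSC minus FL_HSC, and 9 members were lower in Eng_ES-HSC minus Eng_BM-HSC and 8 in FL_HSC minus ESC.

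As log2 of the mean TPM, the core was -0.84 in Eng_ES-HSC minus FL_HSC, 0.013 in Eng_BM-HSC minus FL_HSC, -0.71 in Eng_ES-HSC minus ESC and -0.42 in Eng_BM-HSC minus ESC. The cap was -2.60 in Eng_ES-HSC minus Eng_BM-HSC, -0.999 in Eng_BM-HSC minus FL_HSC and -1.38 in Eng_BM-HSC minus ESC. The immunoproteasome was 0.21 in Eng_BM-HSC minus FL_HSC (also Psmb10), 2.39 in Eng_ES-HSC minus ESC and 3.49 in Eng_BM-HSC minus ESC. Members lower numbered 31 in Eng_ES-HSC minus Eng_BM-HSC, 14 in Eng_BM-HSC minus FL_HSC, 17 in Eng_BM-HSC minus ESC and 4 in FL_HSC minus ESC.

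With a pseudocount of 0.1 the cap was -5.90 in Eng_ES-HSC minus FL_HSC, -5.36 in Eng_BM-HSC minus FL_HSC, -7.31 in Eng_ES-HSC minus ESC and -6.22 in Eng_BM-HSC minus ESC, and with a pseudocount of 10 it was -2.29, -1.95, -2.81 and -2.43. Members lower in Eng_ES-HSC minus Eng_BM-HSC numbered 28 with 0.1 and 11 with 10, and 6 in FL_HSC minus ESC with 10. A trimmed mean gave -5.82 for the cap in Eng_ES-HSC minus ESC. Leaving out cells over 50% mitochondrial gave -6.33 there, and 22 members lower in FL_HSC minus ESC. With detection at a TPM of 10, ESC cells held a mean of 12.6 cap genes, against 15.4 at a TPM of 1.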
